A study of Homo sapiens with 32 samples.

Results

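The genes analysed were the clustered histone genes of HEK293 cells: every row of the count tables annotated as protein-coding whose gene name starts with HIST1H, HIST2H, HIST3H or HIST4H. There were 71 of them among 57773 genes, of which 20327 were protein-coding. By product, 6 encode linker histone H1, 17 H2A, 18 H2B, 15 H3 and 15 H4. By locus, 55 belong to HIST1, 12 to HIST2, 3 to HIST3 and 1 to HIST4. Another 18 rows with such names are annotated as pseudogenes and were left out. HIST2H3PS2 and HIST1H2AD had no count in any library, 51 genes reached a mean of 10 counts, and the others stayed below.

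RNA was sequenced from HEK293 cells, an established human embryonic kidney line, transiently transfected with an expression plasmid for AT1R, the angiotensin II receptor type 1. All groups carried the plasmid, and all cells were moved to medium without serum before the stimulus. The groups were control without stimulus, AII (angiotensin II, 1 nmol/l), EGF (epidermal growth factor, 10 µg/l) and AII+EGF, each after 6 h (16 libraries, 4 per group) and after 24 h (15 libraries, 4 per group and 3 for AII+EGF). Transient transfection leaves cells with different amounts of plasmid or none, so that each library averages over them. The labels do not say that libraries of a group came from separate cultures, and p-values measure the spread between these libraries, which may be technical.

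Replication-dependent histone genes are transcribed mainly in S phase, when new DNA has to be wrapped. H2A, H2B, H3 and H4 form the nucleosome core and H1 binds the linker DNA between nucleosomes. Their mRNA usually lacks introns and a poly(A) tail. It ends shortly after a conserved stem-loop that SLBP, the stem-loop binding protein, holds during processing, translation and decay. A method that selects poly(A) RNA therefore loses most of it, whereas the libraries here were made from total RNA after removal of ribosomal RNA. Some histone genes can also be transcribed into a longer, polyadenylated RNA that passes the stem-loop.

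Of the 71 genes, 68 were located in the GRCh37 annotation, 36 by identifier and 32 by symbol. The HIST1 genes lie within chr6:25723625-27861669, the HIST2 genes within chr1:149389123-149859515, the HIST3 genes within chr1:228612546-228650805 and HIST4H4 within chr12:14920933-14924065. Every annotated transcript of 51 genes had 1 exon. A stem-loop, searched as a perfect 6-base stem around a 4-base loop in the first 100 bases after the stop codon, was found in 66 of 68 genes (97.1%), but in only 804 of 18967 other protein-coding genes (4.24%). HIST1H2AG and HIST1H2AK had none by this search. The sequences below are shown because the classes differ in them, with stem and loop in capitals.

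HIST2H3A, chr1:149824662-149824687, plus strand: caaaaGGCTCTTTTCAGAGCCaccca
HIST1H3A, chr6:26021155-26021180, plus strand: gcaaaGGCTCTTTTCAGAGCCaccac
HIST1H1E, chr6:26157318-26157343, plus strand: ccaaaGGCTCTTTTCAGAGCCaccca
HIST1H2AL, chr6:27833551-27833576, plus strand: acaacGGCTCTTTTCAGAGCCaccta
HIST2H2AC, chr1:149858936-149858961, plus strand: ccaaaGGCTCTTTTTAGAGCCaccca
HIST1H2BK, chr6:27114140-27114165, minus strand: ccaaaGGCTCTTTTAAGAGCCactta
HIST1H4E, chr6:26205224-26205249, plus strand: tcaaaGGCCCTTTTCAGGGCCgccca
HIST1H4K, chr6:27798951-27798976, minus strand: caaaaGGCCCTTTTTAGGGCCcccac
HIST2H4A, chr1:149804591-149804616, plus strand: ccaaaGGCCCTTTTTAGGGCCgacca

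Among the 66 genes with a stem-loop, the rising arm read GGCCCT in every H4 gene, and the genes of the other classes all had one with GGCTCT. HIST1H2BB held a second, different stem-loop. The loop was TTTC in 49 genes, TTTA in 9, TTTT in 5, TCTC in 2 and TCTA in 1. The genes that rose and those that fell between the time points did not separate by stem, since HIST1H4K and HIST2H4A carry the same 16 bases in capitals and HIST1H2AL and HIST2H3A share another 16.

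Several of these genes cannot be counted apart. All 100-base windows of HIST2H3A and HIST2H3C, of HIST2H4A and HIST2H4B, and of HIST2H2AA3 and HIST2H2AA4 occur again elsewhere in the genome. Some windows do so in 13 genes and none in 49. The count ratio within each of these pairs was 0.997 to 1.01 for HIST2H3C over HIST2H3A, 0.972 to 1.00 for HIST2H4A over HIST2H4B and 1.00 to 1.01 for HIST2H2AA3 over HIST2H2AA4 in the 31 libraries. The 2 values of a pair are thus 1 measurement printed under both names, and how reads with several mapping positions were counted is not given in the sources used here. The 6 copies held 46.9 to 57.9% of the clustered histone counts after 6 h and 30.9 to 37.3% after 24 h. HIST1H4J and HIST1H4K had 90.7 and 91.3% of their windows repeated and a count ratio of 0.898 to 0.962 after 6 h and 0.978 to 0.999 after 24 h, so that their values are uncertain as well. The same holds in part for HIST1H2AJ (61.8% of windows repeated), HIST1H2AI (58.8%), HIST2H3D (53.8%) and HIST2H2BF (50.3%). Exons of HIST2H2BF also overlap those of FCGR1A in the annotation.

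The libraries of the time points differed strongly. Total counts were 3881841 to 8540815 after 6 h and 6646227 to 33070903 after 24 h. Protein-coding genes held 81.4 to 84.7% of them after 6 h and 20.8 to 63.4% after 24 h, and genes and pseudogenes of the U1 small nuclear RNA 0.0314 to 0.300% and 8.90 to 57.2%. Levels are therefore given as counts per 1000000 protein-coding counts, written CPM. The clustered histone genes received 51119 to 121082 counts per library after 6 h and 36456 to 123977 after 24 h. The histone pseudogene rows, which were left out, received 64 to 148 counts per library after 6 h and 689 to 2135 after 24 h. VIM and NEFM, which HEK293 cells are known to express, and AGTR1, the transfected receptor, were present, whereas PAX2 and the markers PTPRC, HBB, ALB and KRT5 of other cells had 0 to 10 counts. PECAM1 was not analysed here. Time, library preparation and sequencing run cannot be told apart. Nor can fewer cells in S phase and less histone mRNA per cell, in RNA of whole cultures.

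After 24 h the clustered histone genes held a smaller part of the protein-coding counts than after 6 h, but the classes went different ways. The summed share was 1.36 to 2.44% after 6 h (1.68% ± 0.25, mean ± SD, n = 16) and 0.945 to 1.68% after 24 h (1.24% ± 0.21, n = 15), a ratio of 0.736. By condition, the ratio was 0.696 (control), 0.846 (AII alone), 0.697 (EGF alone) and 0.709 (the combination). Single libraries weighed on these ratios. In control after 6 h, c01 held 2.44% and the others 1.53 to 1.78%. With AII after 24 h, b13 held 1.68% and the others 1.15 to 1.46%. The ranges of the libraries did not overlap between the time points with EGF and with AII+EGF, and they overlapped in control and with AII. With each identical pair counted once, the share was 1.24% after 6 h and 1.02% after 24 h, a ratio of 0.823. This pair-once ratio was 0.773 in control, 0.945 with AII alone, 0.772 with EGF alone and 0.810 with the combination. Per all annotated counts, U1 included, the ratio was 0.386. No test was made for these sums.

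H3 genes held 0.371 to 0.799% of protein-coding counts after 6 h and 0.145 to 0.283% after 24 h, without overlap, with a ratio of 0.394. H2A genes held 0.381 to 0.714% after 6 h and 0.218 to 0.377% after 24 h, with a ratio of 0.611. With HIST2H2AA3 and HIST2H2AA4 counted once, the H2A ranges overlapped, with 0.263% as the lowest value after 6 h and 0.272% as the highest after 24 h (AII library b13), 2 libraries of the 16 lying below it, and the ratio was 0.651. The H3 ranges stayed apart with the pair counted once (at least 0.236% and at most 0.185%, ratio 0.418). The ranges overlapped for H4 (0.253 to 0.430% and 0.195 to 0.443%, ratio 0.889, or 1.02 with the pair counted once), for H1 (0.143 to 0.288% and 0.160 to 0.246%, ratio 1.12) and for H2B (0.203 to 0.264% and 0.197 to 0.334%, ratio 1.17). H3 thus made up 25.8 to 32.8% of the clustered histone counts after 6 h and 12.6 to 17.1% after 24 h, or 21.8 to 28.1% and 10.1 to 13.99% with the pairs counted once.

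**Figure D1:**
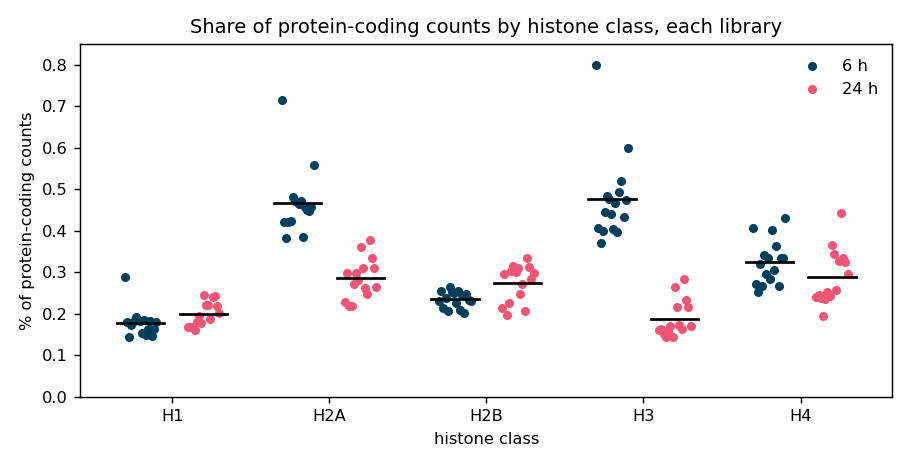
Share of protein-coding counts (percent) held by the H1, H2A, H2B, H3 and H4 genes, 1 point per library, after 6 h (16 libraries) and after 24 h (15 libraries), with lines at the means. The libraries of both times are separate for H3 (lowest 0.371% after 6 h, highest 0.283% after 24 h) and overlap for H1, H2B and H4. For H2A they nearly touch (0.381% and 0.377%), and they overlap once the identical pair is counted once.

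The joint edgeR fit over protein-coding genes tested 55 of the 71 genes between the time points, as the mean of the 4 conditions. A gene was called at an FDR under 0.05 with a fold change above 1.5 and a mean level above 5 CPM in the higher time point. After 24 h, 9 of the 55 were called higher (16.4%) and 19 lower (34.5%), beside 14.4% and 10.4% of all 14284 genes tested. The share called higher was thus near that of all genes, and the share called lower was above it. With each identical pair counted once, 25 were called, 9 higher and 16 lower. The median log2 change was -0.24 over the 55 genes and 0.02 over all genes. In HIST1, 8 of 40 tested genes rose and 10 fell, in HIST2 1 of 11 rose and 7 fell, 6 of them the identical pairs, and in HIST3 2 of 3 fell.

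Of the H3 genes, which form with H4 the tetramer at the centre of the nucleosome, 7 of 10 tested fell, none rose and the class median was -1.01. The 7 include both names of the identical pair HIST2H3A and HIST2H3C. HIST1H3A (chr6:26020679-26021186) had 77.6, 128 and 157 CPM as lowest, median and highest level of the 6 h libraries and 17.1, 42.1 and 56.9 after 24 h. Every 6 h library was above every 24 h library, and the log2 change was -1.61 ± 0.09 (SE, FDR 9.34e-18, edgeR quasi-likelihood test). HIST2H3A (chr1:149824170-149824687), counted together with HIST2H3C, had levels of 1351, 1673 and 3054 after 6 h and 481, 545 and 981 after 24 h. These ranges were also apart, with a log2 change of -1.48 ± 0.10 (FDR 4.73e-16).

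HIST2H3D had levels of 189, 248 and 383 after 6 h and 55.1, 86.6 and 186 after 24 h, with a log2 change of -1.33 ± 0.13. HIST1H3H had levels of 231, 275 and 581 after 6 h and 79.9, 125 and 212 after 24 h, with a log2 change of -1.06 ± 0.11. Both were separate between the time points, HIST2H3D only narrowly. HIST1H3D and HIST1H3B fell less, by 0.78 and 0.73 on the log2 scale. HIST1H3E, at most 6.49 CPM, changed by -0.96 ± 0.25 but missed the level of 5, and HIST1H3F (-0.37) and the testis-specific HIST3H3 (-0.20) were not called.

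Of the H2A genes, 6 of 14 tested fell and 2 rose, and the class median was -0.40. The 6 include both names of the identical pair HIST2H2AA3 and HIST2H2AA4. HIST3H2A (chr1:228622478-228645574) had levels of 100.0, 125 and 260.0 after 6 h and 31.2, 44.5 and 59.9 after 24 h, a log2 change of -1.49 ± 0.10 (FDR 1.24e-15). HIST1H2AH had levels of 123, 146 and 185 after 6 h and 34.2, 56.1 and 89.6 after 24 h, a log2 change of -1.30 ± 0.09. In both genes all 6 h libraries lay above all 24 h libraries. HIST1H2AB fell by 1.05, HIST2H2AA3 and its copy HIST2H2AA4 by 0.90 each and HIST1H2AI by 0.84 on the log2 scale. HIST2H2AA3 had levels of 1168, 1472 and 2374 after 6 h and 599, 813 and 1055 after 24 h.

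The other direction was seen for HIST1H2AL and HIST1H2AE. HIST1H2AL (chr6:27833095-27833576) had levels of 5.04, 6.75 and 10.2 after 6 h and 14.95, 26.2 and 38.5 after 24 h, a log2 change of 1.91 ± 0.12 (FDR 8.04e-17). HIST1H2AE (chr6:26217149-26217665) had levels of 23.7, 32.6 and 43.9 after 6 h and 48.7, 65.1 and 97.9 after 24 h, a log2 change of 1.10 ± 0.08 (FDR 7.40e-15). Neither overlapped between the time points. HIST2H2AC (chr1:149858468-149858961), at 327 to 654 after 6 h and 303 to 541 after 24 h, was not called with a log2 change of -0.08 ± 0.06, nor was HIST1H2AC with -0.07 ± 0.07.

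Of the H2B genes, 2 of 15 tested rose, 2 fell, 11 were not called and the class median was 0.30. HIST1H2BO had levels of 119.8, 144 and 164 after 6 h and 47.0, 65.5 and 103 after 24 h, separate ranges with a log2 change of -1.02 ± 0.06 (FDR 3.34e-17). HIST3H2BB fell by 0.98 on the log2 scale. HIST2H2BF had levels of 528, 614 and 766 after 6 h and 563, 967 and 1375 after 24 h, overlapping ranges with a log2 change of 0.69 ± 0.07 (FDR 8.65e-11). With 50.3% of its windows repeated, the HIST2H2BF values are less certain. HIST1H2BH rose by 0.68 ± 0.13, from a median of 10.1 to 16.3.

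HIST1H2BK (390 to 751 after 6 h, 333 to 569 after 24 h) and HIST2H2BE (260 to 409, 267 to 603) were not called, with log2 changes of 0.02 ± 0.07 and 0.24 ± 0.07. HIST1H2BB and HIST1H2BE had the largest fitted changes of any clustered histone gene, 3.45 and 2.89, but stayed under 5 CPM in every library and were not called. They were singled out after their values were seen. HIST1H2BB had at most 0.284 CPM after 6 h and 0.267 to 4.34 after 24 h, and HIST1H2BE at most 0.945 and 1.08 to 4.72.

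Of the H1 genes, 1 rose, 1 fell and 2 were not called. HIST1H1E (chr6:26156557-26157343) had levels of 455, 597 and 872 after 6 h and 719, 932 and 1210.0 after 24 h, overlapping ranges with a log2 change of 0.68 ± 0.08 (FDR 6.62e-10). HIST1H1D had levels of 34.0, 42.9 and 60.2 after 6 h and 9.86, 22.5 and 30.5 after 24 h, separate ranges with a log2 change of -0.97 ± 0.10 (FDR 1.28e-10). HIST1H1C (931 to 1931 and 866 to 1261) had a log2 change of -0.10 ± 0.07 and HIST1H1A, at most 11.2 CPM, one of -0.41 ± 0.20.

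Of the H4 genes, 4 of 12 tested rose and 3 fell. The 3 include both names of the identical pair HIST2H4A and HIST2H4B, and the 4 include the near copies HIST1H4J and HIST1H4K. HIST1H4E had levels of 55.4, 80.4 and 165 after 6 h and 174, 264 and 392 after 24 h, a log2 change of 1.63 ± 0.12 (FDR 1.07e-14). HIST1H4J (chr6:27791870-27792258) had levels of 86.2, 119 and 154 after 6 h and 179.9, 254 and 430.4 after 24 h, a log2 change of 1.31 ± 0.08 (FDR 1.59e-16). HIST1H4K, whose counts cannot be fully told apart from those of HIST1H4J, had levels of 94.9, 126 and 167 after 6 h and 181, 255 and 433 after 24 h, a log2 change of 1.22 ± 0.08. All 3 were separate between the time points.

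HIST1H4C rose by 0.72 ± 0.15, with levels of 93.3 to 189 after 6 h and 121 to 494 after 24 h that overlapped. Its level was 121 to 260 in the 24 h libraries numbered 01 to 08 and 170 to 494 in those numbered 09 to 16. Most of the former lay within the 6 h range, and most of the latter lay above it. HIST1H4H fell by 0.90 on the log2 scale. HIST2H4A and HIST2H4B, counted together, had levels of 867, 1116 and 1600 after 6 h and 535, 679 and 1093 after 24 h, for a log2 change of -0.62 ± 0.09 (HIST2H4A). This call was lost in the control libraries alone, at -0.52, and with only the 24 h columns not named as filtered, at -0.48. The H4 sum thus held genes that rose and genes that fell.

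**Figure D2:**
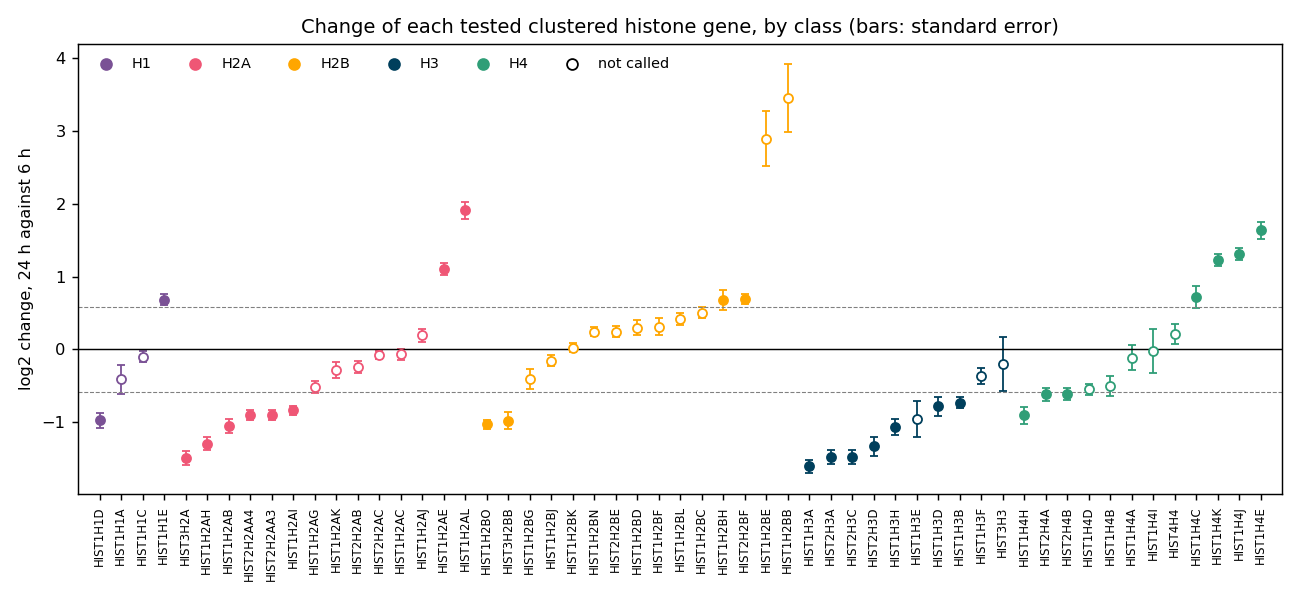
Log2 change from 6 h to 24 h (± SE) of the 55 clustered histone genes tested, grouped by class. Filled circles were called, open circles were not, and dashed lines mark a fold change of 1.5. Called H3 genes lie on the lower side without exception, while H2A, H2B, H1 and H4 have called genes on both sides.

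Many H2A and H2B genes lie head to head and share the sequence between their start sites. There were 10 such pairs with 5′ ends within 1 kb, 169 to 250 bases apart. The bidirectional stretch of each pair was searched on both strands for the TATA box (TATAAA), the CCAAT box (CCAAT) and the octamer (ATTTGCAT), the site known to bind OCT1 and to be typical of H2B promoters. CCAAT was found in 10 of the stretches, TATAAA in 7 and the octamer in 7. In the 7 pairs with both genes tested, the log2 change of the H2B gene was above that of its H2A partner in every pair, by 0.32 to 1.32 with a median of 0.53. This is a description of the pairs, since the genes were measured in the same libraries.

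HIST3H2A changed by -1.49 ± 0.10 and its partner HIST3H2BB by -0.98 ± 0.11, so that both fell. HIST1H2AH changed by -1.30 ± 0.09 and its partner HIST1H2BK by 0.02 ± 0.07. HIST1H2AI changed by -0.84 ± 0.06 and its partner HIST1H2BL by 0.42 ± 0.08. In the remaining 4 pairs neither gene was called. The stretches of these 3 pairs are shown because they lie between the start sites of both partners, on the plus strand of GRCh37 with matches to the 3 motifs in capitals on either strand.

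HIST3H2A and HIST3H2BB, chr1:228645575-228645803: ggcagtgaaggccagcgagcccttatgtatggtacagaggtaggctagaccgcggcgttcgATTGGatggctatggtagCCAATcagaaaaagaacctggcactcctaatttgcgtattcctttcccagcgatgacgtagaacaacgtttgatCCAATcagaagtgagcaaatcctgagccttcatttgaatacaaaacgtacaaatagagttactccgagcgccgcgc
HIST1H2BK and HIST1H2AH, chr6:27114635-27114884: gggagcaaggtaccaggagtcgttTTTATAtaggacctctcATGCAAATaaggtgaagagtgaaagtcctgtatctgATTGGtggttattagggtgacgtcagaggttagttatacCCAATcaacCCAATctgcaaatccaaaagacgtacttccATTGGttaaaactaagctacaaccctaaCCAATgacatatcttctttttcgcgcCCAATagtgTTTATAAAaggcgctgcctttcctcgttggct
HIST1H2BL and HIST1H2AI, chr6:27775708-27775950: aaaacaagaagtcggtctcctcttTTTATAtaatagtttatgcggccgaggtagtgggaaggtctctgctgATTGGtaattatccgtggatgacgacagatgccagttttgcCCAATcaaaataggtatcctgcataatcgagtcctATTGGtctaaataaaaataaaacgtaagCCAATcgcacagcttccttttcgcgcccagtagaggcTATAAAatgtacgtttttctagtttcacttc

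The octamer was matched between HIST1H2BK and HIST1H2AH and in neither of the other two stretches, and the HIST3 stretch held no TATAAA. In RefSeq promoters (250 bases before to 50 after the start, GRCh38.p14), 61 of the 71 genes were matched among 27305 promoters. TATAAA was present in 41 (67.2%), beside 12.3% of all promoters, and CCAAT in 51 (83.6%), beside 35.4%. CCAAT was in all 48 promoters of H1, H2A, H2B and H3 genes and in 3 of 13 H4 promoters. The octamer was in 11 of 16 H2A and 9 of 13 H2B promoters and in no other of these promoters, beside 1.83% of all. AAACACA, the H1 box, was in 6 of 6 H1, 2 of 13 H3 and 1 of 16 H2A promoters, beside 5.79% of all.

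**Figure D3:**
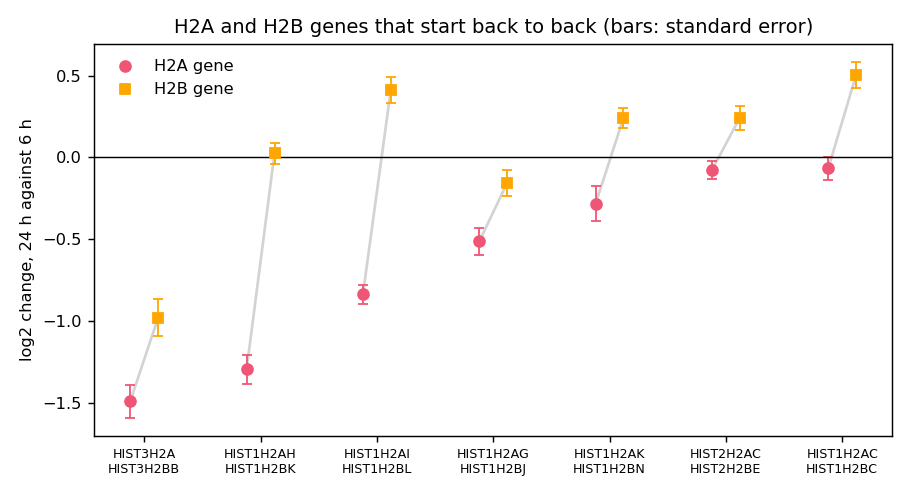
Log2 change from 6 h to 24 h (± SE) of both genes of the 7 head-to-head H2A and H2B pairs with both genes tested. The H2B gene is above its H2A partner in each pair, with the widest gap for HIST1H2AH (-1.30) and HIST1H2BK (0.02).

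A hand-picked list of 6 genes known to be made also as polyadenylated RNA in some cells had log2 changes between -0.10 and 0.30. HIST1H1C changed by -0.10, HIST1H2AC by -0.07, HIST1H2BD by 0.30, HIST1H2BK by 0.02, HIST2H2BE by 0.24 and HIST4H4 by 0.21, and none of the 6 was called. Of all genes tested, 75.2% were not called either. The list is not complete. Within the list, every annotated transcript of HIST1H1C, HIST1H2BK and HIST2H2BE had 1 exon. Outside the list, genes with an annotated transcript of several exons included HIST3H2A (-1.49) and HIST3H2BB (-0.98), which were called lower. HIST1H4H, HIST2H4A and HIST2H4B, also of this kind, were called lower, and HIST2H2BF was called higher. HIST1H2BJ (-0.16) and HIST1H2BN (0.24), also of this kind, were not called. Whether the RNAs of these genes carried a poly(A) tail was not tested. HIST1H2BD (FDR 0.0124) and HIST2H2BE (FDR 0.00365) passed the edgeR FDR and missed the fold change. Of the 4 testis-specific genes only HIST3H3 had enough counts to be tested. The replacement and variant histone genes outside the clusters, whose mRNA is mostly polyadenylated and not restricted to S phase, moved in both directions. H2AFX is an exception, known to be made also as a stem-loop mRNA. Of 11 tested, 5 rose and 2 fell, beside 14.4% and 10.4% of all genes. H1F0, the linker histone of resting cells, rose by 2.38 ± 0.07, from a mean of 53.9 to 272 CPM. H3F3C had the largest ratio of mean levels in the list (9.89), from only 0.667 to 6.60 CPM. The ratio was 1.87 for H1FX, 1.59 for H2AFY2 and 1.52 for H3F3A. H2AFZ fell by 1.21 on the log2 scale, from 316 to 134 CPM, and H2AFV by 0.75.

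Of 15 tested genes for histone gene transcription and for processing and decay of histone mRNA, none rose and 4 fell. ERI1, an exonuclease that trims histone mRNA at the stem-loop, fell by 0.76, NPAT, the histone gene co-activator, by 0.67, CSTF2 by 0.64 and UPF1, a helicase of histone mRNA decay, by 0.60 on the log2 scale. SLBP itself was not called, with 0.22. Of 24 genes of S phase and DNA replication, 7 fell and 1 rose. ASF1B, a histone chaperone, fell by 1.12, TK1 by 1.04, PCNA, the sliding clamp, by 0.97, UNG by 0.79, E2F1 by 0.66, CDC6 by 0.65 and MCM6 by 0.62 on the log2 scale, and CHAF1A rose by 0.60. These counts stand beside 10.4% of all genes that were called lower.

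Other RNAs without a poly(A) tail had ratios of 24 h to 6 h, per protein-coding counts, of 3.03 for RN7SK, 1.85 for RMRP, 2.03 for TERC, 2.93 for RN7SL1, 5.45 for RN7SL2 and 0.935 for RPPH1. The long nuclear RNAs MALAT1 and NEAT1 had ratios of 2.82 and 2.27. Except for RPPH1 these ratios were above 1, whereas that of the summed clustered histone genes was 0.736, or 0.823 with each identical pair counted once. These values were not tested, and their part in the histone result was not tested.

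The treatments were compared within each time point, to ask whether activation of EGFR, of AT1R or of both changes histone mRNA. After 6 h the control libraries had a summed share of 1.82% ± 0.43 (SD, n = 4), the AII libraries 1.63% ± 0.10, the EGF libraries 1.52% ± 0.16 and the AII+EGF libraries 1.76% ± 0.16 (n = 4 each). The control library c01 reached 2.44%. After 24 h the control libraries had 1.27% ± 0.23, the AII libraries 1.38% ± 0.24, the EGF libraries 1.06% ± 0.12 (n = 4 each) and the AII+EGF libraries 1.24% ± 0.11 (n = 3). The ranges of all 4 groups overlapped within each time point. Within the 24 h libraries numbered 01 to 08, the EGF libraries had 0.973 and 0.945% and the control libraries 1.01 and 1.17%. Within those numbered 09 to 16, the EGF libraries had 1.19 and 1.13% and the control libraries 1.55 and 1.34%.

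**Figure D4:**
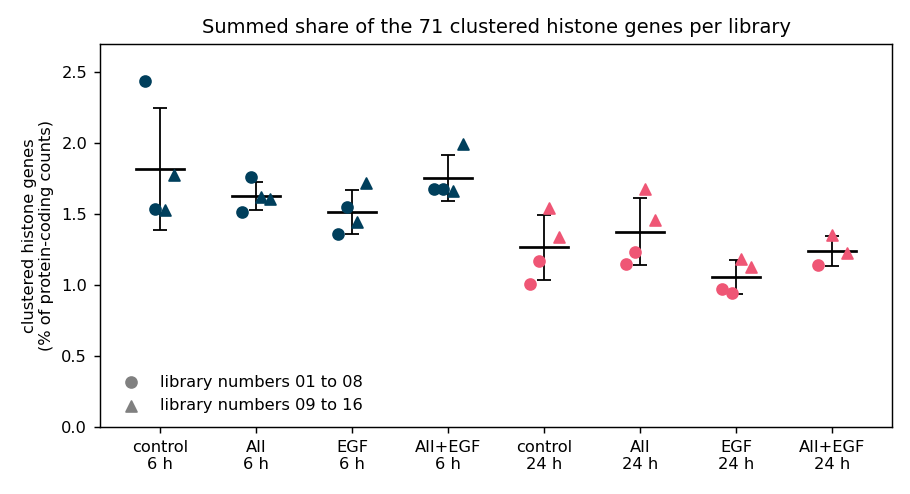
Summed share of the clustered histone genes (percent of protein-coding counts) in each library by condition and time, with bars for mean ± SD. Circles are library numbers 01 to 08 and triangles 09 to 16. The 24 h libraries numbered 01 to 08 sit between 0.945 and 1.23% and those numbered 09 to 16 between 1.13 and 1.68%.

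No clustered histone gene was called in any of the 8 treatment comparisons by edgeR, and none by DESeq2. After 6 h, 52 of the 71 genes were tested. At an unadjusted p under 0.05 there were 8 of them for AII, 13 for EGF, 6 for AII+EGF and 6 for AII+EGF against EGF, and 5, 9, 6 and 3 with DESeq2. With edgeR this was 15.4, 25, 11.5 and 11.5% of the 52 genes, beside 4.54, 20.2, 18.9 and 7.25% of all 18618 genes at the same p. The share for EGF was near that of all genes and the share for AII+EGF below it. Of all genes, 0, 1.73, 1.95 and 0% were called in these comparisons. The median log2 change of the 52 genes was -0.17 for AII, -0.13 for EGF, 0.01 for AII+EGF and 0.14 for AII+EGF against EGF, beside medians of all genes between -0.01 and 0.00. Without the control library c01 the medians were -0.07, -0.02, 0.11 and 0.14, and 0, 3, 12 and 13 genes had an unadjusted p under 0.05. Without the control library c09 the medians were -0.24 for AII, -0.20 for EGF and -0.05 for AII+EGF. The comparisons share control libraries or EGF libraries.

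HIST2H2AC had the smallest p for EGF after 6 h. Its levels were 654, 485, 459 and 445 in the control libraries and 394, 391, 327 and 409 in the EGF libraries. All EGF libraries were below all control libraries, and the log2 change was -0.41 ± 0.10 (edgeR FDR 0.0132), which stayed below a fold change of 1.5. HIST2H2AB was called lower with EGF when the control library c02 was left out (-0.61, edgeR FDR 0.0243) or c09 (-0.61, FDR 0.0215). Its levels were 147 (c01), 71.3 (c02), 69.6 (c09) and 94.0 (c10) in the control libraries. The EGF libraries had 64.2, 70.4, 67.3 and 66.0. Both calls thus kept the high control library c01 and left out a control library near the EGF levels. HIST1H2AC had the smallest p for AII (-0.31 ± 0.13, edgeR FDR 0.987) and for AII+EGF (-0.41 ± 0.13, FDR 0.0591), and HIST1H1E for AII+EGF against EGF (0.32 ± 0.13, FDR 0.677). For EGF, the class medians after 6 h were -0.32 for H1, -0.29 for H2A, -0.02 for H2B, -0.31 for H3 and -0.11 for H4.

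Among the 24 S phase genes tested, 4 passed the FDR alone, beside 5.97% of all genes under that rule. CDT1 (-0.52), MCM5 (-0.33), MCM2 (-0.29) and RRM2 (0.46) had an edgeR FDR under 0.05 for EGF after 6 h, all below a fold change of 1.5.

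After 24 h, 55 genes were tested. There were 3 at an unadjusted p under 0.05 for AII, 9 for EGF, 4 for AII+EGF and 13 for AII+EGF against EGF, and 4, 10, 4 and 13 with DESeq2. With edgeR this was 5.45, 16.4, 7.27 and 23.6% of the 55 genes, beside 2.48, 8.48, 5.4 and 3.37% of all 22174 genes at the same p. Of all genes, 0, 0.0316, 0.0271 and 0% were called. The median log2 change of the 55 genes was 0.13 for AII, -0.25 for EGF, -0.01 for AII+EGF and 0.23 for AII+EGF against EGF. These medians moved with single libraries. For AII the median was 0.02 without b13 and 0.24 without b09, for EGF -0.35 without b01 and -0.13 without b09, and for AII+EGF -0.13 without b01 and 0.14 without b09. For AII+EGF against EGF it ranged from 0.20 to 0.33. The number of genes at an unadjusted p under 0.05 ranged from 0 to 6 for AII, 3 to 19 for EGF, 3 to 8 for AII+EGF and 7 to 17 for AII+EGF against EGF. The comparisons share control or EGF libraries.

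HIST1H2AC had the smallest p for EGF after 24 h. Its levels were 131, 151, 180.0 and 160 in the control libraries and 81.7, 93.6, 124 and 113 in the EGF libraries. The groups did not overlap, and the log2 change was -0.55 ± 0.15 (edgeR FDR 0.261), so that it did not pass the test. HIST1H4K had the smallest p for AII+EGF, with levels of 181, 252, 249 and 255 in control and 325, 375 and 433 with AII+EGF. These groups were separate too, with a log2 change of 0.71 ± 0.19 (edgeR FDR 0.377). With the library series (numbers 01 to 08 and 09 to 16) as a block, HIST1H4K (0.64) and its near copy HIST1H4J (0.65) were called for AII+EGF at an edgeR FDR of 0.0448 each. HIST1H4K was also the gene with the smallest p for AII (0.39 ± 0.18, FDR 1.00). HIST1H2BO was that for AII+EGF against EGF (0.54 ± 0.16, FDR 1.00).

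**Figure D5:**
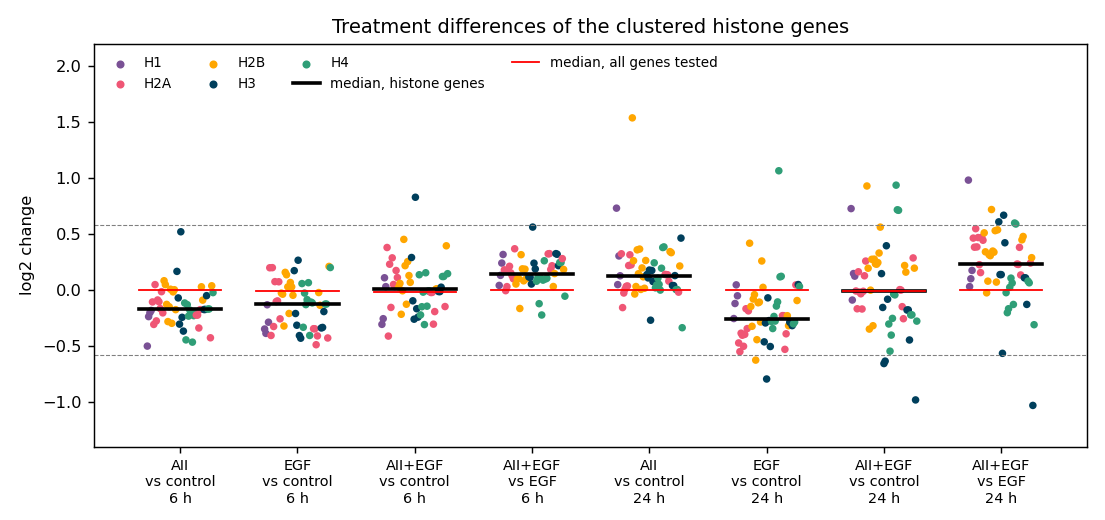
Log2 changes of the clustered histone genes tested in each of the 8 treatment comparisons, 1 point per gene, with the median of these genes in black and that of all genes in red. Dashed lines mark a fold change of 1.5. The medians range from -0.25 (EGF after 24 h) to 0.23 (AII+EGF against EGF after 24 h), and no gene was called. Several medians moved when single libraries were left out.

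Whether a treatment acted differently at the time points was tested in the joint fit. None of the 55 genes passed an FDR of 0.05 for the EGF effect after 24 h minus that after 6 h, beside 0.441% of 14284 genes, and none for the AII+EGF effect, beside 0.203%. At an unadjusted p under 0.05 there were 5 and 3 genes with edgeR and 5 and 4 with DESeq2. The edgeR counts were 9.09 and 5.45% of the 55 genes, below the 12.1 and 8.91% of all genes at that p. The smallest p belonged to HIST1H2AE for EGF (-0.59, edgeR FDR 0.265) and to HIST1H4J for AII+EGF (0.72, FDR 0.271).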

How the data were processed

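Total RNA of the AT1R-transfected HEK293 cultures was isolated with TRIzol, treated with DNase I, depleted of ribosomal RNA with RiboMinus and sequenced on a HiSeq2000. No selection of poly(A) RNA is named. The authors deposited whole-number read counts for each gene, not normalized. Per the submitters' processing notes, the authors trimmed reads with Trim Galore and cutadapt 1.8.1, mapped them with TopHat2 2.0.14 to hg19 and counted them with featureCounts 1.4.6, while the design text names HISAT2 as mapper. Strand setting and treatment of reads with several positions are not given in the sources used here. The names of 8 columns of counts after 24 h carry the word filtered, those of the other 7 do not. The AII+EGF 24 h library b08 was not analysed here.

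Groups came from the labels. Counts were fitted with edgeR 4.0.16 (TMM, filterByExpr, quasi-likelihood F test, Benjamini-Hochberg adjustment over all genes tested) in R 4.3.3. One fit per time point held all genes and the 4 conditions (18618 genes after 6 h, 22174 after 24 h), and a joint fit of 14284 protein-coding genes compared the time points. A call needed a mean above 5 counts per 1000000 in the higher group, a fold change above 1.5 and an FDR under 0.05, and differences of effects an FDR under 0.05 alone. DESeq2 1.42.0, other scalings and filters, a block for library series, control libraries only and leaving out each library were the alternatives. The biological coefficient of variation was 10.6% after 6 h, 29.1% after 24 h and 15.2% in the joint fit, so that small changes are harder to see after 24 h. The fits were tested on simulated data.

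The smallest chi-square per gene between libraries of a group was 1.95, and all were kept as separate samples. The genes and lists were chosen with earlier results of these data known. Named were, per class, the 3 genes with the highest mean share, the 3 largest rises and falls, the gene with the smallest p in each treatment comparison, every gene called, and the lists. Sequences were read from GRCh37, promoters from RefSeq.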

Additional observations from a re-analysis of the deposited data

Results flagged for a closer look

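A gap test (Dixon, at the 95% level) over the groups of 4 libraries found 15 single libraries apart from the rest of their group, in 203 combinations of group and quantity (7.39%). For separate combinations, chance alone gives about 1 in 20. These combinations were not separate, since both names of identical pairs and the class sums that include them were tested. The share flagged therefore cannot be set directly against that rate.

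The control library c01 after 6 h gave 5 of them. Its H2A share was 0.714% of protein-coding counts and its H3 share 0.799%, and it had levels of 3054 counts per 1000000 protein-coding counts for HIST2H3A and for its copy HIST2H3C and 260.0 for HIST3H2A, all above the other control libraries. The AII+EGF library c16 after 6 h was high in the summed share (2.00%, beside 1.66 to 1.68% in the others), in the H2A share (0.558%) and in HIST2H2AA3 (1898) and its copy HIST2H2AA4 (1895). The control library b01 after 24 h was low in HIST1H1D (9.86), HIST1H4J (179.9) and HIST1H4K (181). HIST1H3A was low in the AII library c05 after 6 h (112), and HIST2H2BE was high in the AII library b13 (603) and in the EGF library b11 (352), both after 24 h.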

How the results depend on the processing

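No paired analysis was possible because replicate numbers are absent from the labels. Blocking on library series, which pairs no single libraries, was run instead. Of 42 named results of clustered histone genes, 33 kept their direction and call under all alternatives run. For 24 h against 6 h, 28 genes were called, 25 to 29 under the other alternatives, 27 to 30 without single libraries, and 45 on the FDR alone. HIST1H1E (0.53) and HIST2H4A (-0.52) and HIST2H4B (-0.52) lost their call in control libraries alone. HIST1H3D (-0.53), HIST2H4A (-0.48) and HIST2H4B (-0.48) lost it with the 24 h columns not named as filtered. HIST2H4B lost it without b05 (-0.58), and HIST1H4C without b13 and b16 (0.57), an alternative chosen after seeing the data, as was counting pairs once. HIST1H2BK, never called, turned to -0.0019 without TMM, -0.0151 with all annotated genes and -0.21 in control libraries alone. It ranged from -0.0135 to 0.0673 without single libraries, below 0 without c02, c05, b02, b07 or b11. The ratio of summed shares was 0.386 per all annotated counts and 0.717 to 0.759 without single libraries. It was 0.813 with the unfiltered 24 h columns, whose mean share was 1.37%, beside 1.24% in all 24 h libraries. This shift is under the SD of the ratio (0.165), a wide measure drawn from the spread of single libraries. The columns named as filtered are those of b01 to b07 and b15, so that filtering and library series nearly coincide.

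For EGF after 6 h, 1 gene was called on the FDR alone (HIST2H2AC) and 0 to 1 without single libraries. For AII+EGF after 24 h, 2 genes (HIST1H4J and HIST1H4K) were called without the filter on low counts and 2 with library series as a block, and for AII+EGF against EGF after 24 h 2 without the filter. The other treatment comparisons called 0 throughout. Over all genes, the EGF comparison after 24 h called 7 genes, 55 with DESeq2 and 35 with the block, and the AII+EGF comparison 6, 31 and 32. The causes were not tested. Intervals and spreads cover counting and library error only, and time cannot be told apart from library preparation.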
